A study of Mus musculus with 36 samples.

Results

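Asf1b, Slbp, Anp32e, Mdc1, Nabp1 and Pidd1 are 6 genes that supply and handle histones or act in the DNA damage response. They were examined for binding of TBP, the TATA-binding protein, among 21883 protein-coding genes of the RefSeq table for GRCm38.p6 (mm10). The genes were chosen by their function and by where TBP summits were present or missing in the same lists described here, so presence and score are given as descriptions and carry no test. All 6 had 1 summit within 500 bp of an end of the gene in the ethanol list of each of 2 mouse embryonic stem (ES) cell lines. After induced deletion of Taf7 (RT7 line) Slbp alone had a summit, and after induced deletion of Taf10 (RT10 line) Anp32e and Pidd1 had one.

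The lists were RT7 4-OHT, RT7 EtOH, RT10 4-OHT and RT10 EtOH. RT7 cells carry the genotype R26CreERT2/+;Taf7flox/flox and RT10 cells R26CreERT2/+;Taf10flox/flox, so both lines, and their EtOH controls, carry floxed alleles and a tamoxifen-responsive Cre recombinase at the Rosa26 locus. Cells received 4-hydroxytamoxifen (4-OHT) or its solvent ethanol (EtOH) from day 1 to day 3, in medium with serum, leukemia inhibitory factor, CHIR99021 and PD0325901. CUT&RUN, in which an antibody-guided nuclease releases the DNA around a bound protein, gave 2 TBP libraries and 1 IgG library per line and treatment, and 1 list of TBP peak summits over IgG was used for each. The lists held 1379 summits (RT7 4-OHT), 2666 (RT7 EtOH), 2188 (RT10 4-OHT) and 3102 (RT10 EtOH). With 1 list per group there was no replicate check, the read depth is unknown, and where a summit is missing the peak caller reported none, which does not measure how much TBP was there. The score of a summit is the authors' −log10 q value and was read within its own list, as a rank (1 is the highest score) or as a percentile rank (100 is the top). Scores of different lists that stand side by side are given with their ranks and are not a measure of change. Binding of TAF7 and TAF10 was not analysed here, so the loss of either protein was not checked. Of 8 pluripotency genes Nanog and Klf2 had a summit at a gene end in all 4 lists, Tbx3 in all but RT7 4-OHT, Zfp42 in both EtOH lists and neither 4-OHT list, Sox2 in RT10 EtOH alone, and Pou5f1, Esrrb and Klf4 in none. Of 8 fibroblast genes Fn1 alone had a summit, in the EtOH lists.

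TBP is part of TFIID, the general transcription factor that assembles at RNA polymerase II promoters together with TBP-associated factors (TAFs) such as TAF7 and TAF10. ES cells divide rapidly and must provide new histones whenever they copy their DNA. Asf1b encodes a chaperone that hands histones H3 and H4 to the factors that deposit them, Slbp the protein that binds the stem loop of replication-dependent histone mRNAs and guides their processing, and Anp32e a chaperone that removes the histone variant H2A.Z from chromatin. Mdc1 encodes the adaptor that binds phosphorylated H2AX next to DNA breaks, Nabp1 a protein that binds single-stranded DNA in the SOSS complex, and Pidd1 the scaffold of the PIDDosome, which activates caspase-2.

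The promoters at which the summits lay are printed here because 12 of the 15 summits at these genes fall inside them and the other 3 lie 19 to 105 bp outside, and because they show the CCAAT boxes described next. The genes were chosen by function and summits, not by sequence, but the motifs searched were chosen with earlier results of these data known. Each is the RefSeq window of GRCm38.p6 from 250 bases before to 50 bases after the annotated start, 5′ to 3′ in the direction of transcription, and capitals mark CCAAT or its reverse complement ATTGG. For Pidd1 the window of the neighbouring gene Rplp2 is shown, since the Pidd1 summits lay there or just outside. They lay near the 5′ end of the Pidd1 span, away from the start used for the RefSeq window of Pidd1.
Asf1b (chr8:83955444-83955743, plus strand): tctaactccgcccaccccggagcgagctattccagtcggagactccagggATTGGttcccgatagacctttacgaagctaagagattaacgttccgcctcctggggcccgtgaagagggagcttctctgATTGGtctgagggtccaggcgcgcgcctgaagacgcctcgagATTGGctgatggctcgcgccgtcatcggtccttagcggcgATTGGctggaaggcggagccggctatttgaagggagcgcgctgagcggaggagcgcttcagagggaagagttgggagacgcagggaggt
Slbp (chr5:33652525-33652824, minus strand): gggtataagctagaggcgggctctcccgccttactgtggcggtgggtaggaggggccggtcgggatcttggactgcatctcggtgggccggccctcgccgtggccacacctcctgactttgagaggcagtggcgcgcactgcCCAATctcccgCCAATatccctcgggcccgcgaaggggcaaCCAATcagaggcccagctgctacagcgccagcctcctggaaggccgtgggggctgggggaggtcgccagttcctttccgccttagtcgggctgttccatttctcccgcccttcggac
Anp32e (chr3:95929007-95929306, plus strand): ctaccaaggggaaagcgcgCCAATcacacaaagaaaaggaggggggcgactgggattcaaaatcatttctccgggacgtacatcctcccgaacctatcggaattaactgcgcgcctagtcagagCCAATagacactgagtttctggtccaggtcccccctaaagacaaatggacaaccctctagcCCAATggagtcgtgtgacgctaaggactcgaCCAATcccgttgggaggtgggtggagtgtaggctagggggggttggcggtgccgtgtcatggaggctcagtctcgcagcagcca
Mdc1 (chr17:35841248-35841547, plus strand): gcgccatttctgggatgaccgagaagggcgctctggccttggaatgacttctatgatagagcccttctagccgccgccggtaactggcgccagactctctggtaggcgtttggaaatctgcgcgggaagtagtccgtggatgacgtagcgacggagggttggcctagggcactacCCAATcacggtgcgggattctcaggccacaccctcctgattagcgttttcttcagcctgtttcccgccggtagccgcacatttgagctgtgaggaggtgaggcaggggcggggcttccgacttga
Nabp1 (chr1:51478350-51478649, minus strand): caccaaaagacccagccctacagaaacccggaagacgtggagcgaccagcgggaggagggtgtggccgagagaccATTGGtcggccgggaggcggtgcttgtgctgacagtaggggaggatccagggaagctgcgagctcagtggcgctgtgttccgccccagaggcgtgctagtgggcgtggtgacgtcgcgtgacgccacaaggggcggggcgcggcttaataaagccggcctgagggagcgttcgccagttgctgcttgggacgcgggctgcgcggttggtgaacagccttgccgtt
Rplp2 (chr7:141447401-141447700, plus strand): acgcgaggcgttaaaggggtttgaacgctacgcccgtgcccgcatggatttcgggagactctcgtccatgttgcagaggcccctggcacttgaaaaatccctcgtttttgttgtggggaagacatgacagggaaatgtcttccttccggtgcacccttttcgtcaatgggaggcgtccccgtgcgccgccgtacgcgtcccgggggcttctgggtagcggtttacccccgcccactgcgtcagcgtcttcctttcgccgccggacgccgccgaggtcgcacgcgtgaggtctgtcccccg

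The 3 genes of histone supply had several CCAAT boxes each, 4 in Asf1b, 3 in Slbp and 4 in Anp32e. Mdc1 and Nabp1 had 1 each, and the windows of Pidd1 and Rplp2 had 0. Among all 32851 RefSeq promoter windows of the same length 37.4% held at least 1 CCAAT or ATTGG and 3.37% at least 3. Among the 515 windows with a summit inside them in both EtOH lists, the windows of Asf1b, Anp32e, Mdc1 and Nabp1 included, these shares were 59.8% and 21.4%. Some of the 515 windows are alternative starts of 1 gene and overlap, so they are not independent. In Asf1b the boxes began 200, 121, 79 and 39 bases before the start, in Slbp 108, 97 and 67 bases before it, and in Anp32e 231, 126, 65 and 34 bases before it. The nearest summit lay 7 bp from the middle of a box in Anp32e (RT10 EtOH), 18 bp in Asf1b (RT7 EtOH), 25 bp in Nabp1 (RT7 EtOH), 31 bp in Mdc1 (RT7 EtOH) and 76 bp in Slbp (RT10 EtOH). Each value is the smallest over all boxes and lists of that gene, so more boxes or summits make it smaller. Such distances were not measured in other windows.

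Other motifs were searched on both strands in the same windows. TATAAA, a form of the TATA box that TBP contacts, was found in none of the 6 printed windows, in 13.6% of all windows and in 16.1% of the 515 with EtOH summits. GGGCGG, the core of the GC box, occurred once in Asf1b, Slbp, Mdc1 and Rplp2, in 2 places in Nabp1 and not in Anp32e, against 35.7% of all windows and 69.5% of the 515 with at least 1. CCGGAAG, a core of ETS factor sites, occurred once in Nabp1 and once in Rplp2, against 8.86% of all windows and 17.1% of the 515. CACGTG (7.15% of all windows and 18.4% of the 515), GCGCATGC (2.71% and 4.85%), TTTCGCGC (0.323% and 2.72%), TTTGGCGC (0.514% and 1.94%) and ACTACAA (3.24% and 3.50%) were in none of the 6. No matches of different motifs overlapped in these windows. The windows of the 6 genes themselves held 16 to 28 CpG dinucleotides, with 28 in Nabp1, 27 in Asf1b, 22 each in Slbp and Mdc1, 17 in Pidd1 and 16 in Anp32e, against a median of 7 over all windows and 21 over the 515. A match is a string of letters and was not tested as a binding site.

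The question put to the lists was whether TBP summits at these genes were still called after deletion of each subunit. A gene with a summit within 500 bp of either end is called bound. In RT7, 1 of the 6 genes was bound in the 4-OHT list and 6 of 6 in the EtOH list. Over all protein-coding genes 2.73% had a summit within 500 bp of an end in RT7 4-OHT and 5.31% in RT7 EtOH. In RT10, 2 of the 6 had a summit in the 4-OHT list and 6 of 6 in the EtOH list, against 3.86% of protein-coding genes in RT10 4-OHT and 5.95% in RT10 EtOH. Of the protein-coding genes with an EtOH summit, 43.2% in RT7 and 49.4% in RT10 had a 4-OHT summit within 250 bp of it. By the same measure 1 of the 6 genes did in RT7 and 2 did in RT10. The genes were picked on these comparisons, so their counts say nothing beyond the choice. All 15 summits lay 11 to 248 bp from the nearer gene end, and the next summit outward lay 2976 bp away or farther in every list, so none was close to the 500 bp limit.

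**Figure D1:**
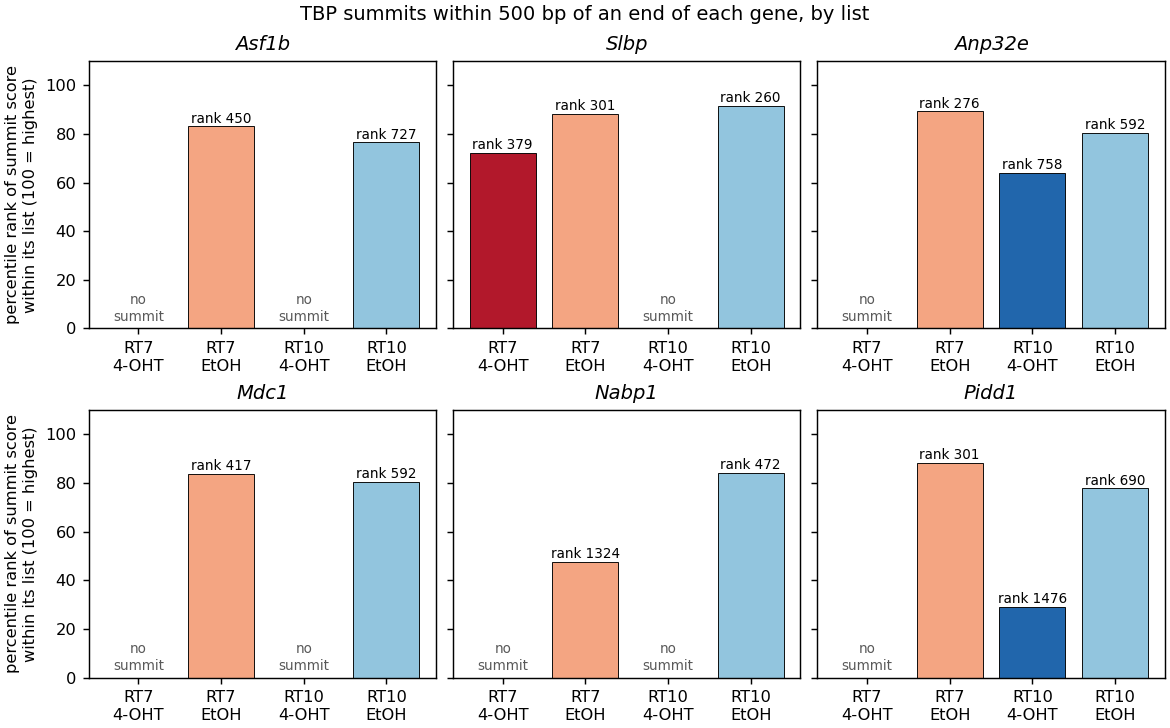
Percentile rank of the summit score within its own list (vertical axis, 100 is the highest score) for the 6 genes in the RT7 4-OHT, RT7 EtOH, RT10 4-OHT and RT10 EtOH lists. Bars carry the rank in the list, and lists without a summit within 500 bp are marked; 3 of the 12 places in 4-OHT lists and all 12 in EtOH lists hold a bar.

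Asf1b, whose protein carries H3 and H4 to the chromatin assembly factors, spans positions 83955694 to 83970195 of chromosome 8 on the plus strand. It had no summit in RT7 4-OHT, a score of 15.3 in RT7 EtOH (rank 450 of 2666), no summit in RT10 4-OHT and a score of 12.1 in RT10 EtOH (rank 727 of 3102). It was thus present in both EtOH lists, at percentile ranks 83.1 (RT7) and 76.6 (RT10), and absent from both 4-OHT lists. The nearest summit was 96435 bp from the gene in RT7 4-OHT and 96509 bp in RT10 4-OHT, at a site 3066 to 3140 bp from an end of Rfx1 in these lists that was called in all 4 lists, with scores of 15.7 in RT7 4-OHT (rank 185), 26.8 in RT7 EtOH (rank 177), 22.8 in RT10 4-OHT (rank 199) and 25.5 in RT10 EtOH (rank 246). The Asf1b summits lay 180 bp (RT7 EtOH) and 248 bp (RT10 EtOH) upstream of the start. That places them between Asf1b and Gm10644, a long noncoding RNA gene on the opposite strand, whose start was 181 bp and 113 bp away. A TBP summit in this gap cannot be assigned to either gene.

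Slbp, at positions 33640055 to 33652574 of chromosome 5 on the minus strand, was the gene with a summit in RT7 4-OHT and without one in RT10 4-OHT. Its score was 9.15 in RT7 4-OHT (rank 379 of 1379), against 19.4 in RT7 EtOH (rank 301). RT10 4-OHT had no summit within 104305 bp, against a score of 24.8 in RT10 EtOH (rank 260). The percentile ranks were 72.3 in RT7 4-OHT, 88.3 in RT7 EtOH and 91.5 in RT10 EtOH, and 91.5 is the highest of any of the 6 genes in any list. Its 3 summits lay downstream of the start, by 154 bp in RT7 4-OHT, 106 bp in RT7 EtOH and 11 bp in RT10 EtOH. No other gene had an end within 500 bp of them. Tmem129, on the same strand, ends 642 bp before the Slbp start, 653 to 796 bp from the summits.

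Anp32e, at positions 95929245 to 95947387 of chromosome 3 on the plus strand, had the opposite pattern after deletion. It had no summit in RT7 4-OHT (nearest at 109593 bp), against a score of 20.6 in RT7 EtOH (rank 276). In RT10 4-OHT it had a score of 8.24 (rank 758 of 2188), against 14.0 in RT10 EtOH (rank 592). Its percentile rank was 64.1 in RT10 4-OHT, against 80.4 in RT10 EtOH, and 89.4 in RT7 EtOH. The summits lay upstream of the annotated start in each of the 3 lists, and those of RT10 4-OHT and RT10 EtOH were 42 bp apart. Gm46815, a long noncoding RNA gene on the minus strand, starts 157 bp from the RT10 4-OHT summit, 159 bp from the RT7 EtOH summit and 115 bp from the RT10 EtOH summit, so this site too is shared by divergent genes.

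Mdc1, at positions 35841495 to 35859670 of chromosome 17 on the plus strand, had no summit in RT7 4-OHT, against a score of 15.9 in RT7 EtOH (rank 417). It had none in RT10 4-OHT, against 14.0 in RT10 EtOH (rank 592, a score shared by 35 summits, that of Anp32e among them). Its percentile ranks of 83.9 in RT7 EtOH and 80.4 in RT10 EtOH were close to those of Asf1b, with which it shares the absence from both 4-OHT lists. The summits lay upstream of the start, 39 bp (RT7 EtOH) and 133 bp (RT10 EtOH) from the nearer end of the gene, and no other gene had an end within 500 bp.

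Nabp1, at positions 51464968 to 51478475 of chromosome 1 on the minus strand, differed most between the EtOH lists of the 6 genes. It had no summit in RT7 4-OHT, against a score of 5.57 in RT7 EtOH (rank 1324, shared by 150 summits), and none in RT10 4-OHT, against 16.3 in RT10 EtOH (rank 472). Its percentile rank was 47.6 in RT7 EtOH and 84.3 in RT10 EtOH, a difference of 36.7 points. The other 5 genes differed by 3.19 to 10.5 points between the EtOH lists, and the median over the 878 protein-coding genes with a summit in both was 11.9 points. The RT7 EtOH and RT10 EtOH summits of Nabp1 were 21 bp apart, the closest pair of the 6 genes, which ranged up to 95 bp for Slbp.

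Pidd1, at positions 141438113 to 141447565 of chromosome 7 on the minus strand, had no summit in RT7 4-OHT (nearest 1605004 bp away), against a score of 19.4 in RT7 EtOH (rank 301, tied with Slbp). In RT10 4-OHT it scored 3.68 (rank 1476 of 2188), against 12.7 in RT10 EtOH (rank 690). Its percentile rank was 29.0 in RT10 4-OHT, the lowest of the 15 summits, against 77.8 in RT10 EtOH, and it was 88.3 in RT7 EtOH. The RT10 4-OHT summit is not among the highest scores when all lists are shortened to the 1379 summits of RT7 4-OHT, ties at the end included, so the difference between RT7 4-OHT and RT10 4-OHT at Pidd1 is lost at equal list length. The RT10 4-OHT and RT10 EtOH summits were 54 bp apart. The start given for Pidd1 in the RefSeq promoter table, position 141444025, lies inside the span of the gene, and the summits were 3357 to 3437 bp upstream of it. They lay within the gene, 103 to 183 bp from the 5′ end of its span. The start of Rplp2 was 189 bp (RT7 EtOH), 215 bp (RT10 4-OHT) and 269 bp (RT10 EtOH) away, with the summits upstream of it. The summits cannot be assigned to either gene. Rplp2 encodes an acidic protein of the ribosomal stalk and runs on the opposite strand. Measured from annotated starts alone, Pidd1 had no summit in any list, and 5 of the 6 genes were bound in each EtOH list.

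**Figure D2:**
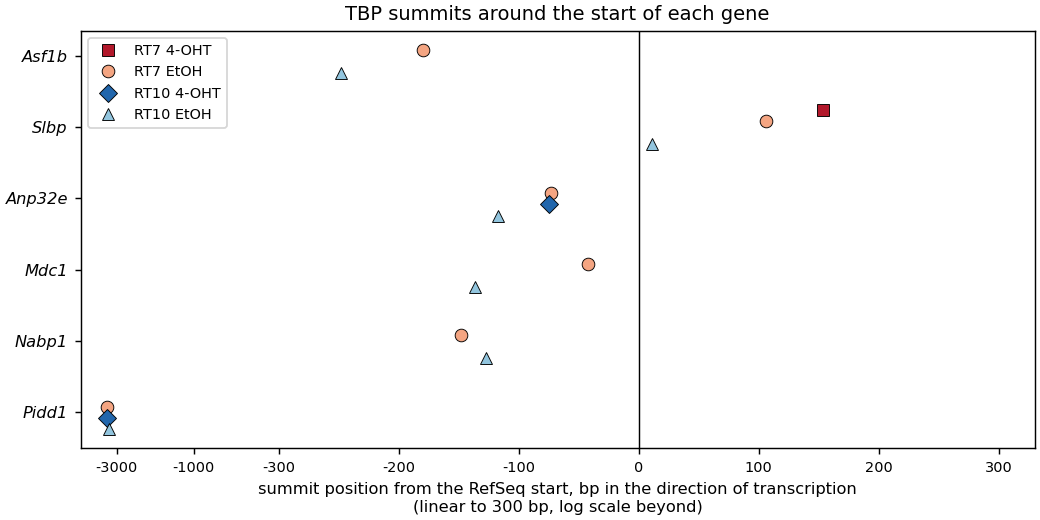
Position of each TBP summit relative to the RefSeq start of the gene, in bp in the direction of transcription (linear to 300 bp, log scale beyond), with a symbol for each of the 4 lists. Asf1b, Anp32e, Mdc1 and Nabp1 have their summits upstream of the start, and Slbp has all 3 downstream. Those of Pidd1 lie 3357 to 3437 bp upstream of its start in the promoter table, near the 5′ end of its span and beside Rplp2.

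Where the summits lay was thus alike for 4 genes. Asf1b, Anp32e, Mdc1 and Nabp1 had every summit upstream of the annotated start, whereas Slbp had all 3 downstream. Of all EtOH summits within 500 bp of the start of a protein-coding gene, 73.8% in RT7 and 71.6% in RT10 lay upstream. At 3 of the 6 genes (Asf1b, Anp32e and Pidd1) the summits were also within 500 bp of an end of a second gene. Over all EtOH summits at ends of protein-coding genes this held for 34.1% in RT7 and 33.9% in RT10. Where a gene had a summit in 2 lists its position moved little, by 21 to 95 bp between the EtOH lists (median 74 bp, 6 genes) and by 42 to 54 bp between the 4-OHT list and the EtOH list of the same line (3 genes).

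The 6 genes were next placed among the 878 protein-coding genes that had a summit in both EtOH lists. Of these 48.4% had a summit within 500 bp of an end in both 4-OHT lists, 6.95% in RT7 4-OHT alone, 20.7% in RT10 4-OHT alone and 23.9% in neither. None of the 6 genes was in the first class. Slbp was in the second, Anp32e and Pidd1 in the third, and Asf1b, Mdc1 and Nabp1 in the last. All but Nabp1 were above percentile 75 in both EtOH lists, together with 244 other genes. Of those 249 genes 88.0% had a summit in both 4-OHT lists, 4 in RT7 4-OHT alone, 17 in RT10 4-OHT alone and 9 in neither, Asf1b and Mdc1 being 2 of the 9. Over all summits, with or without a gene, 79.0% of those above percentile 75 in RT7 EtOH and 85.3% in RT10 EtOH had a 4-OHT summit of the same line within 250 bp, against 14.7% in RT7 EtOH and 20.4% in RT10 EtOH at or below percentile 25. The 6 genes were picked in part for such missing summits, so their place in these classes is no finding.

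**Figure D3:**
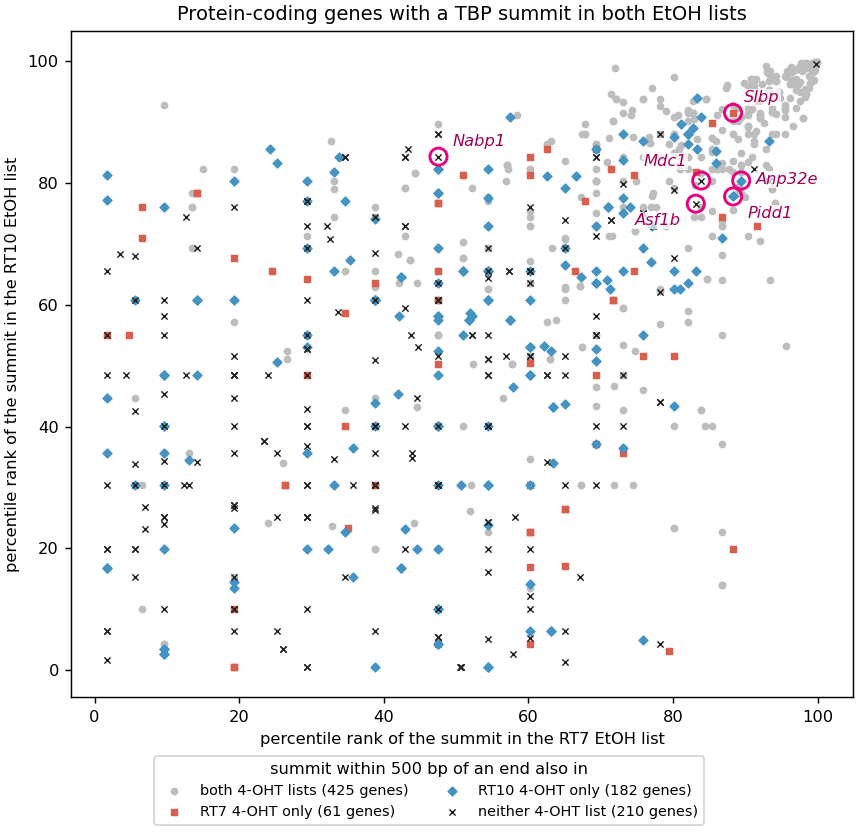
Percentile rank of the summit at each of the 878 protein-coding genes with a TBP summit in both EtOH lists, RT7 EtOH on the horizontal and RT10 EtOH on the vertical axis, with symbols for the 4-OHT lists that also hold a summit within 500 bp of an end. Circles mark the 6 genes; 5 lie at the upper right, among genes of which most had a summit in both 4-OHT lists, and Nabp1 lies at 47.6 on the horizontal axis.

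By likeness over the 4 lists, taken as the largest difference in percentile rank in any list with 0 for a missing summit and without genes that share the summit, Rtn4 was nearest to Asf1b (3.02 points) and Mdc1 was next (3.80 points). Fbrs was nearest to Mdc1 (1.78 points), followed by Rtn4 (3.77 points), but Fbrs had a summit in RT7 4-OHT, at percentile 1.78, where Mdc1 had none. Ddit3 and Mbd6, which had equal values in all 4 lists, were nearest to Nabp1 (3.76 points each). Cabyr (4.87 points) and Mbd3 (5.53 points) were nearest to Anp32e, although Mbd3 had a summit in RT7 4-OHT too (percentile 3.48). Jup (6.87 points) and Vcl (9.80 points) were nearest to Pidd1, apart from Rplp2, which has the same summits and so the same values. Slbp had no gene closer than 13.7 points, that of Hsd17b12, with Hnrnpul2 next at 14.0 points, which had a summit in RT10 4-OHT where Slbp had none. A low-ranked summit counts nearly as a missing one in this measure, so near genes need not be called in the same lists.

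The stretches around the genes were searched for other TBP sites up to 100 kb from either end, joining summits of different lists within 250 bp. There were 12 such sites, of which 3 had a summit in RT7 4-OHT, 9 in RT7 EtOH, 3 in RT10 4-OHT and 7 in RT10 EtOH. The whole lists differ too, with 1379, 2666, 2188 and 3102 summits in that order, and no difference between these counts was tested. Of the 12 sites 7 were called in 1 list alone. Those called in all 4 lists were 2, the site near Rfx1 beyond Asf1b and a site 120 bp from an end of Ppp1r10, which encodes a regulatory subunit of protein phosphatase 1, near Mdc1. At Ppp1r10 the scores were 10.2 in RT7 4-OHT (rank 340), 28.1 in RT7 EtOH (rank 163), 11.4 in RT10 4-OHT (rank 516) and 13.2 in RT10 EtOH (rank 651). Mrps18b had the same percentile ranks as Ppp1r10 in all 4 lists. The Ppp1r10 site lies 56962 bp from Mdc1. The summits at these genes were ranked 592 (Mdc1) and 651 (Ppp1r10) in RT10 EtOH, and in RT10 4-OHT the Ppp1r10 summit alone was called. In RT7 EtOH the ranks were farther apart, 417 (Mdc1) and 163 (Ppp1r10), and in RT7 4-OHT again the Ppp1r10 summit alone was called. Mdc1 was chosen in part for its missing 4-OHT summits, so its side of this contrast was fixed by the choice. The site at Ier3, an early response gene 19794 bp before Mdc1, was called in RT7 4-OHT (2.30, rank 1223), RT7 EtOH (12.6, rank 566) and RT10 4-OHT (2.62, rank 1902) and not in RT10 EtOH.

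Closer by, sites beside 2 of the genes had the EtOH-only pattern themselves. That pattern was not rare, as 23.9% of the 878 protein-coding genes with a summit in both EtOH lists had none in either 4-OHT list. A summit 156 bp from an end of Tacc3, whose protein stabilises spindle microtubules, lay 5710 bp from Slbp, also within 500 bp of the start of Tmem129, and was called in RT7 EtOH (7.45, rank 1011) and RT10 EtOH (8.72, rank 1042) but in neither 4-OHT list. A summit 177 bp from an end of Tubb5, a tubulin gene, lay 3017 bp from Mdc1 and was likewise called in RT7 EtOH (9.42, rank 781) and RT10 EtOH (6.77, rank 1345) only. A summit 3953 bp past Anp32e was found in RT10 EtOH alone (5.83), and no other site lay within 100 kb of Nabp1.

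**Figure D4:**
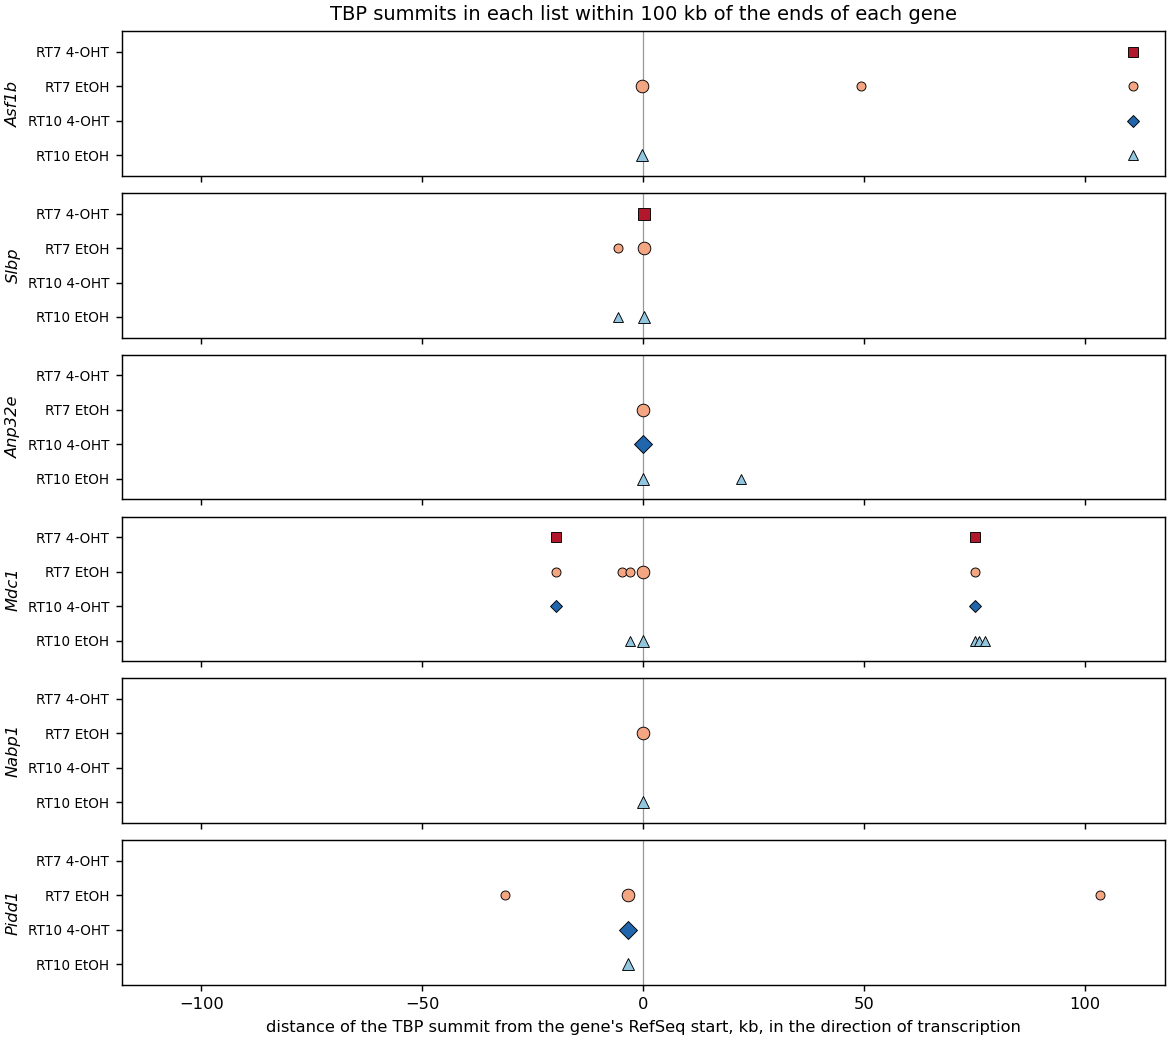
TBP summits in each of the 4 lists (rows) within 100 kb of the ends of each gene (panels), against the distance in kb from the RefSeq start in the direction of transcription; larger symbols are the summits at the gene. The far site beyond Asf1b and the site 75134 bp past the start of Mdc1 are present in all 4 rows. The summits at Asf1b and Mdc1 are in the EtOH rows only, for which these genes were chosen in part.

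Counted without the 6 genes, genes of the same processes were bound somewhat more often than all protein-coding genes in each list, by differences within counting error. The 6 genes were chosen in part for their EtOH summits, so leaving them out lowers these shares and keeping them in raises them. Of 45 other genes for histone chaperones and histone mRNA processing, 2 had a summit in RT7 4-OHT (4.44%, exact 95% interval 0.543 to 15.1), 4 in RT7 EtOH (8.89%, 2.48 to 21.2), 2 in RT10 4-OHT (4.44%, 0.543 to 15.1) and 5 in RT10 EtOH (11.1%, 3.71 to 24.1). None of the 45 had a summit in both EtOH lists, which follows from the choice. The 3 genes of the full list that did, Asf1b, Slbp and Anp32e, are those left out. Of the 45 genes 36 had no summit in any list, a share that was not counted over all protein-coding genes. These intervals cover counting error only, and each holds the share of all protein-coding genes in that list. With Asf1b, Slbp and Anp32e kept in, 7 of 48 genes were bound in RT7 EtOH (14.6%, 6.07 to 27.8). In RT10 EtOH 8 were bound (16.7%, 7.48 to 30.2). The shares of all protein-coding genes were 5.31% and 5.95%. Asf1b, Slbp and Anp32e were picked in part for their EtOH summits, so these intervals cannot be compared with those shares. In each 4-OHT list 3 were bound (6.25%, 1.31 to 17.2), beside 2.73% of all protein-coding genes in RT7 4-OHT and 3.86% in RT10 4-OHT. Neither count is free of the choice, and no excess was tested. Chaf1a, a subunit of the chromatin assembly factor that receives histones from Asf1 proteins, and Set, a histone chaperone, were bound in RT10 EtOH alone (9.74 each, rank 929). Casp8ap2, a component of the histone locus body, was also bound there alone (4.58, rank 1974), and so was Ubn1, a subunit of the HIRA chaperone complex (3.76, rank 2295), at a site shared with Glyr1. Supt6, a histone chaperone of transcribing polymerase, was bound in RT7 EtOH alone (4.68, rank 1559), at a site shared with Sdf2.

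The summits of 3 genes of this list were called in opposite treatments in the 2 lines. The share of all protein-coding genes with such a pattern was not counted. At equal list length the EtOH summits of Mcm2 (RT7) and Cpsf2 (RT10) are lost, and Rbbp4 alone keeps the pattern. The Rbbp4 site was shared with Zbtb8os and the Cpsf2 site with Ndufb1, so these summits cannot be assigned to the named gene alone. Rbbp4, a histone-binding subunit of several chromatin complexes, had no summit in RT7 4-OHT, against 6.72 in RT7 EtOH (rank 1146), and 5.95 in RT10 4-OHT (rank 1070), against none in RT10 EtOH. Mcm2, a helicase subunit that binds H3 and H4 at the replication fork, had none in RT7 4-OHT, against 4.57 in RT7 EtOH (rank 1721), and 8.24 in RT10 4-OHT (rank 758, tied with Anp32e), against none in RT10 EtOH. Cpsf2, a subunit of the cleavage complex that trims histone mRNAs, had 2.30 in RT7 4-OHT (rank 1223), against none in RT7 EtOH, and none in RT10 4-OHT, against 2.44 in RT10 EtOH (rank 2723). Daxx, a chaperone of H3.3, had a summit of rank 818 in RT7 4-OHT (score 4.44), against rank 2565 in RT7 EtOH (score 1.55), and none in the RT10 lists, at a site shared with Zbtb22.

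Of 62 other DNA damage response genes, 2 had a summit in RT7 4-OHT (3.23%, 0.393 to 11.2), 7 in RT7 EtOH (11.3%, 4.66 to 21.9), 4 in RT10 4-OHT (6.45%, 1.79 to 15.7) and 5 in RT10 EtOH (8.06%, 2.67 to 17.8). Of these 62 genes, 4 were bound in both EtOH lists, beside 878 of all 21883 protein-coding genes, a difference that was not tested. Each interval again holds the share of all protein-coding genes in that list. With Mdc1, Nabp1 and Pidd1 kept in, 10 of 65 genes were bound in RT7 EtOH (15.4%, 7.63 to 26.5), beside 5.31% of all protein-coding genes. The counts were then 8 in RT10 EtOH (12.3%, 5.47 to 22.8), 2 in RT7 4-OHT (3.08%, 0.375 to 10.7) and 5 in RT10 4-OHT (7.69%, 2.54 to 17). These counts too depend on the choice, so their intervals cannot be compared with the share of all protein-coding genes. Rad9a, a subunit of the checkpoint clamp, was the gene bound in all 4 lists, with scores of 1.53 in RT7 4-OHT (rank 1344), 3.45 in RT7 EtOH (rank 2023), 6.18 in RT10 4-OHT (rank 1050) and 3.68 in RT10 EtOH (rank 2347), at a site shared with Gm30082. Brca1, a ubiquitin ligase subunit that acts in repair by homologous recombination, was bound in both 4-OHT lists and in EtOH in RT7 alone. It had 3.95 in RT7 4-OHT (rank 863), against 2.19 in RT7 EtOH (rank 2500), and 5.06 in RT10 4-OHT (rank 1235), against none in RT10 EtOH, at a site shared with Nbr1. Prkdc, the catalytic subunit of DNA-dependent protein kinase, had the pattern of Asf1b, Mdc1 and Nabp1, with no 4-OHT summit, 6.49 in RT7 EtOH (rank 1165) and 6.26 in RT10 EtOH (rank 1517). Its site was shared with the helicase subunit gene Mcm4. Ints3, a partner of Nabp1 in the SOSS complex, and Bard1, the partner of Brca1, had the pattern of Anp32e and Pidd1. Ints3 had no summit in RT7 4-OHT, against 2.81 in RT7 EtOH (rank 2309), and 4.16 in RT10 4-OHT (rank 1447), against 4.50 in RT10 EtOH (rank 2032). Bard1 had none in RT7 4-OHT, against 8.16 in RT7 EtOH (rank 977), and 3.68 in RT10 4-OHT (rank 1476, tied with Pidd1), against 4.35 in RT10 EtOH (rank 2044). Fanca of the Fanconi anaemia core complex was bound in RT10 EtOH alone (10.2, rank 879). The kinase gene Chek2 (2.05, rank 2545, at a site shared with Hscb) and the clamp gene Rad1 (3.83, rank 1811) were bound in RT7 EtOH alone.

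**Figure D5:**
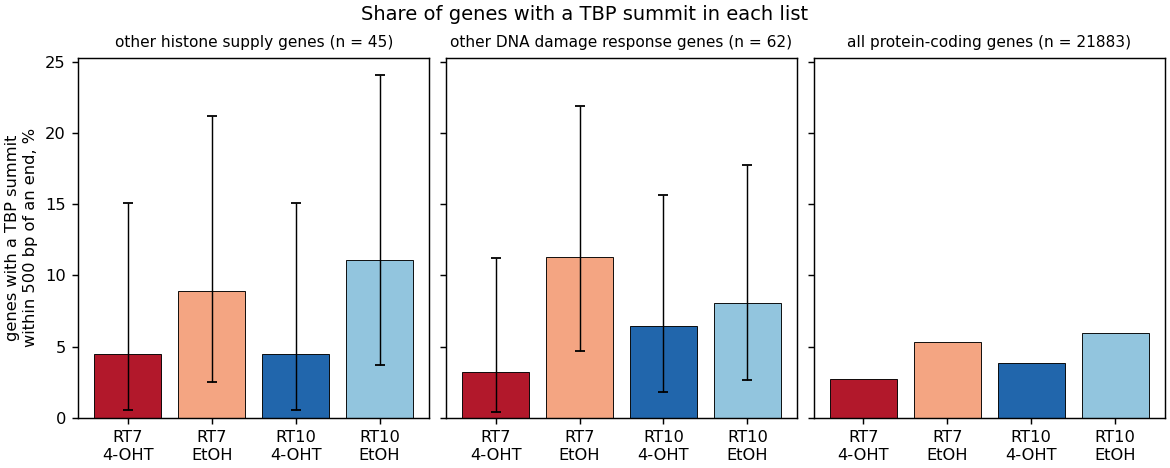
Percentage of genes with a TBP summit within 500 bp of an end (vertical axis) in each of the 4 lists, for 45 other histone supply genes, 62 other DNA damage response genes and all 21883 protein-coding genes; error bars are exact 95% binomial intervals for counting error. The intervals of both gene lists overlap the share of all protein-coding genes in every list.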

How the data were processed

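TBP CUT&RUN libraries of RT7 and RT10 mouse ES cells were grouped by their titles. The IgG libraries titled RT7 EtOH and RT10 4-OHT bear the other treatment in their characteristics, and the titles were followed. The submitters' processing notes name cutadapt 4.0, Bowtie2 2.4.4, SAMtools 1.15.1, bedtools, deepTools and MACS2 2.2.7.1 and the build mm10, with no roles. Scores in the deposited lists were taken as −log10 q-values of TBP over IgG at the summit, from the peak names and a lowest score of 1.30; the threshold, the use of the yeast spike-in and any pooling of libraries are not given in the sources used here. The files hold no read counts, so the precision that depth gives is unknown.

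Gene ends came from the RefSeq table of GRCm38.p6, and starts, strands and sequences from RefSeq promoter windows (all 6 genes matched). A gene was called bound with a summit within 500 bp of either end, and a summit kept with a 4-OHT summit within 250 bp. Tied scores share the best rank. Shares have exact Clopper-Pearson 95% intervals. No test was run, as each group has 1 list. Genes named were the 6 members, genes sharing their summits, bound genes of the lists of histone supply and DNA damage response genes, the 2 genes nearest in pattern and genes nearest to neighbouring sites. Members, lists and motifs were chosen with earlier results of these data known. The matching was tested on simulated summits. Python 3.11.15, NumPy 2.4.6, pandas 2.3.3, SciPy 1.17.1 and matplotlib 3.10.9 were used. Alternatives were gene end distances of 250 and 1000 bp, annotated starts only, scores of at least 10, lists of equal length and partner distances of 100, 500 and 1000 bp.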

Additional observations from a re-analysis of the deposited data

Results flagged for a closer look

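Summits at 3 genes of the histone supply list were called in opposite treatments in the 2 lines. The share of all protein-coding genes with such a pattern was not counted. Cpsf2 had a summit in 4-OHT and not in EtOH in RT7 (score 2.3) and in EtOH and not in 4-OHT in RT10. Mcm2 (8.24 in RT10 4-OHT) and Rbbp4 (5.95 in RT10 4-OHT) had a 4-OHT summit and no EtOH summit in RT10, and an EtOH summit and no 4-OHT summit in RT7. The Cpsf2 site was shared with Ndufb1 and the Rbbp4 site with Zbtb8os. When all lists are shortened to 1379 summits, the lowest scores kept are 5.57 in RT7 EtOH and 6.77 in RT10 EtOH. The EtOH summits of Mcm2 (4.57 in RT7) and Cpsf2 (2.44 in RT10) are then lost, and Rbbp4 alone keeps the pattern. With 1 list per group, the difference between the lines was not tested.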

How the results depend on the processing

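Of 66 alternatives 47 stayed within 1.5 times the reported count and 19 did not. The number of the 6 genes bound in EtOH was 5 or 6 throughout. Slbp in RT7 and Anp32e and Pidd1 in RT10 kept their summit at every partner distance. With scores of at least 10, none of the 6 genes was bound in RT7 4-OHT or RT10 4-OHT (0 in both); histone supply genes (48 with the members) had 0 bound in RT7 4-OHT, 3 in RT7 EtOH, 0 in RT10 4-OHT and 3 in RT10 EtOH, against 3, 7, 3 and 8 in the full lists, and DNA damage response genes (65) had 0, 2, 0 and 4, against 2, 10, 5 and 8. With all lists shortened to the 1379 highest scores, ties at the end included, RT10 4-OHT held 1 of the 6 genes (Anp32e), histone supply genes had 4 in RT7 EtOH and 5 in RT10 EtOH, and DNA damage response genes 5 in RT7 EtOH, 2 in RT10 4-OHT and 4 in RT10 EtOH. The Nabp1 score in RT7 EtOH is among those ties. With annotated starts only, RT10 4-OHT again held 1 of the 6 genes (Anp32e). At 1000 bp histone supply genes had 5 in RT10 4-OHT and DNA damage response genes 4 in RT7 4-OHT. These alternatives drop or add summits by construction. No paired analysis was possible because the lists carry no replicate number and no result comes from a test. Depth is unknown, so how far it limits the missing 4-OHT summits could not be measured.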
